A study of Arabidopsis thaliana with 30 samples.

Results

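The WRKY transcription factors of Arabidopsis thaliana were followed through an RNA sequencing study of DNA damage in seedlings. Members were taken by gene identifier, from a list of 59 WRKY genes, out of 68575 rows in the deposited table. All 59 matched a gene of the RefSeq TAIR10.1 gene table whose symbol or synonym holds the WRKY number. The table holds 13 further rows with a WRKY name that are outside this list. Of the 59 members, 58 passed the filter on low counts. WRKY34 did not, with a group mean of at most 0.0630 CPM (counts scaled to a common library size).

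The groups were of Δlinda, a line mutated in the LINDA long noncoding RNA, or of Col-0, the wild type, all as whole seedlings of 14 days kept on 10 h of light per day. UV-C seedlings received 2 kJ of UV-C, which mainly forms pyrimidine dimers, and were taken 3 h later. Normal light seedlings, whose time of harvest the labels do not state, were their controls. Zeocin seedlings spent 3 h in liquid medium with 80 µg/ml Zeocin, a radiomimetic that causes double-strand breaks, and mock seedlings in liquid medium without it were their controls (the labels' protocol words this pair the other way round). Zeocin Col-0 and mock Δlinda had 3 libraries each. UV-C Δlinda, UV-C Col-0, normal light Δlinda, normal light Col-0, Zeocin Δlinda and mock Col-0 had 4 libraries each. No label says that replicates came from separate plates, so p-values measure the spread between these samples, which may be technical.

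WRKY proteins are a large plant family of DNA-binding regulators. Each carries 1 or 2 WRKY domains with a zinc finger, and they bind the W-box, a short promoter element with the core TTGAC. Many act in immune signalling downstream of mitogen-activated protein kinases, some act as repressors of the same genes, and several bind the promoters of other WRKY genes. The family is divided by domain and zinc finger into group I (12 members here), IIa (3), IIb (8), IIc (13), IId (6), IIe (8) and III (9).

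The W-box was looked for in the 300 bases around each annotated gene start, 250 before and 50 after it, because many WRKY promoters are WRKY targets. The motifs TTGACC and TTGACT were counted on both strands. They were present in 23 of 59 member windows (39.0%) and in 32.4% of the 27443 windows of protein-coding genes, members included. At least 2 copies stood in 12 member windows (20.3%) and in 7.7% of all windows. The shorter core TTGAC, which both motifs contain, stood in 37 member windows (62.7%) and in 50.5% of all windows. The windows of 3 members with large rises after UV-C are given 5′ to 3′ from RefSeq TAIR10.1, with W-boxes in capitals on either strand. They show the range from 3 copies in WRKY30 through 2 in WRKY33 to 0 in WRKY40.
WRKY30, chr5:8154661-8154960, minus strand: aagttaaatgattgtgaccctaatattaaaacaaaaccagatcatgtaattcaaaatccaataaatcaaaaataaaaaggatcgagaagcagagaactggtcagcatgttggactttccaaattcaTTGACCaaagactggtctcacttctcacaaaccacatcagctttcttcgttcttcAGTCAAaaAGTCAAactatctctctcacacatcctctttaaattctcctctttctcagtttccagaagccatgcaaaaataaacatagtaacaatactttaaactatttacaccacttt
WRKY33, chr2:16107985-16108284, plus strand: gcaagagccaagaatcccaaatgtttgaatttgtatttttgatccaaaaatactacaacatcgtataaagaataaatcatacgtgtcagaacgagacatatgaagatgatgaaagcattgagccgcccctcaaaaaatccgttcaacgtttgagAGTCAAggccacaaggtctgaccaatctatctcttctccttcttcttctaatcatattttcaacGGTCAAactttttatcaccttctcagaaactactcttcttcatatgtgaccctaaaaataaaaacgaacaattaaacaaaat
WRKY40, chr1:30383311-30383610, plus strand: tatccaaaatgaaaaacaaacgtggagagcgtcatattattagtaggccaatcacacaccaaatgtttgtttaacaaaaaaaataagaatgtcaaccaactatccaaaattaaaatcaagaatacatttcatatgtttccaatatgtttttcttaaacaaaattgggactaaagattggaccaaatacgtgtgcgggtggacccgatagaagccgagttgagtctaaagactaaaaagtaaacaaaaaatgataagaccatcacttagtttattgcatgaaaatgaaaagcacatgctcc
A match of letters is a description and not a binding site.

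The WRKY domain is named after a conserved heptapeptide that contacts the W-box. Its 21 coding bases are shown for WRKY33, which has 2 domains, and for WRKY40, WRKY50 and WRKY51, with the sixth codon in capitals. That codon was AAG in 2 members, WRKY50 and WRKY51, and CAA or CAG in the other 57. The pair is shown because both rose steeply after UV-C, and WRKY50 after Zeocin too. Of the 12 group I members, 11 had the heptapeptide at 2 places and WRKY19 had it at 1.
WRKY33, first domain: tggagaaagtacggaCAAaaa
WRKY33, second domain: tggagaaaatacggcCAGaaa
WRKY40: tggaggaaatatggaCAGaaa
WRKY50: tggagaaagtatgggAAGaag
WRKY51: tggaggaagtatggcAAGaaa

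Library totals were 12931009 to 15134572 estimated counts, except normal light Δlinda replicate 1 with 7897847. The table lost its decimal marks, which were put back from the values. For 5 members, WRKY21, WRKY30, WRKY41, WRKY53 and WRKY69, an entry stayed unclear (2 entries for WRKY53), and these were kept at the most likely reading. For mock Col-0 replicate 1 the title and the genotype tag disagree (the tag names the mutant), and the title was followed. The noncoding gene AT3G00800 is taken as LINDA from general knowledge of the study. It had 14 to 25 counts in UV-C Δlinda and 74 to 148 in UV-C Col-0. In Zeocin Δlinda it had 135 to 444 counts, against 506 to 779 in Zeocin Col-0. The deleted stretch is not given, so these counts check no label.

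UV-C raised most of the family. In Δlinda 36 members rose and 6 fell of 58 tested, and in Col-0 38 rose and 3 fell (edgeR quasi-likelihood test, adjusted p under 0.05 over 20893 genes). Among all genes tested, 35.3% were called up and 33.1% down in Δlinda (68.4% either way), and 35.0% up and 33.7% down in Col-0 (68.8% either way). Of the members, 62.1% were called up in Δlinda and 65.5% in Col-0. The median member changed by 1.31 on the log2 scale in Δlinda and by 1.73 in Col-0, while the median gene changed by 0.03 and 0.02. With members whose control group had 3 or fewer counts set at their bound or ratio, the medians were 1.18 and 1.73. Rises over 4-fold came to 24 members in Δlinda and 27 in Col-0, against 12.2% and 12.4% of all genes. Rises over 16-fold came to 19 and 17 members, against 5.32% and 5.39% of all genes. The summed level of all 59 members was 4321 ± 543 CPM in UV-C Δlinda and 470 ± 20.9 CPM in normal light Δlinda (SD, n = 4 each). It was 4578 ± 282 CPM in UV-C Col-0 and 542 ± 76.6 CPM in normal light Col-0 (SD, n = 4 each).

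Other features of the libraries moved with UV-C. The rows AT3G41768 and AT3G06365, counted together as ribosomal and miscellaneous RNA, took 6.14% to 12.8% of UV-C libraries and 0.703% to 1.66% of normal light libraries. The 3 leaf markers summed to 13520 to 20550 CPM after UV-C and to 23550 to 32720 CPM in normal light. The 4 stomatal lineage markers summed to 13.1 to 17.2 CPM after UV-C and to 44.3 to 56.3 CPM in normal light, with none at 0. The 3 vascular markers summed to 158.0 to 212.6 CPM after UV-C and to 197.1 to 274.8 CPM in normal light, ranges that overlap. The 7 root markers summed to 21.2 to 30.3 CPM after UV-C and to 39.6 to 50.5 CPM in normal light. CASP1 was at 0 after UV-C and at most 0.322 CPM in normal light. SCR had means of 15.05 and 18.47 CPM in UV-C Δlinda and Col-0, against 33.78 and 32.75 CPM in normal light. SHR changed less, and WOX5, MYB36 and SHV2 had higher means after UV-C in both genotypes, at low levels. Their part in the WRKY results was not tested. In whole seedlings, fewer cells of a type and less RNA per cell cannot be told apart.

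**Figure D1:**
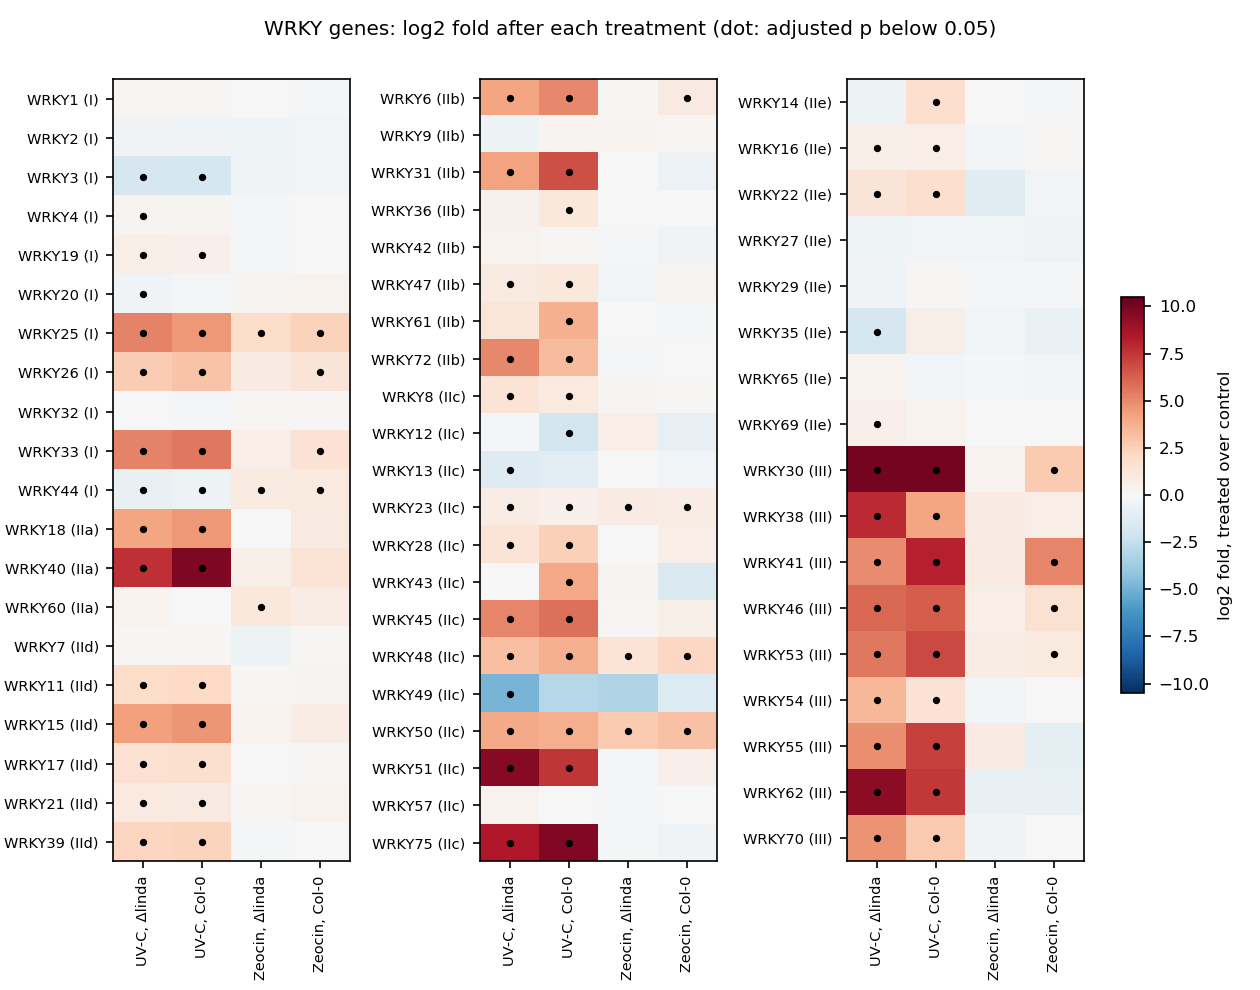
Log2 folds of the 58 tested WRKY members, treated over control, in 4 comparisons (columns), with members by group (in brackets) in rows, red for higher and blue for lower; a dot marks adjusted p under 0.05. Group III shows 9 dots in both UV-C columns, while dots in the Zeocin columns are few; folds of members with 0 counts in a control group depend on the prior count.

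Group III, which holds many defence-linked members, rose in 9 of 9 members in both genotypes. With the decimals placed without the groups it rose in 8 of 9, WRKY30 being the exception. Group IId, the calmodulin-binding members, rose in 5 of 6 members in both genotypes, WRKY7 being the exception. Group IIc rose in 8 of 13 members in Δlinda and 9 in Col-0, with 2 and 1 members lower. Group IIb rose in 4 of 8 members in Δlinda and 6 in Col-0, and group IIa in 2 of 3 in both. Group IIe rose in 3 of 8 members in both genotypes, with 1 lower in Δlinda. That is 37.5% of its members, near the 35.3% and 35.0% of all genes called up. Group I rose in 5 of 11 tested members in Δlinda and 4 in Col-0, with 3 and 2 lower, and its 36.4% in Col-0 is also near the share of all genes.

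WRKY40 (AT1G80840), a repressor that acts with WRKY18 and WRKY60 in basal defence, rose by 7.65 ± 0.66 (SE) on the log2 scale in Δlinda (adjusted p = 3.10e-10) and by 9.79 ± 0.76 in Col-0 (adjusted p = 4.26e-11). Its level was 774.6, 649.3, 699.3 and 526.2 CPM in UV-C Δlinda, against 1.37, 2.58, 1.19 and 7.23 CPM in normal light Δlinda. The UV-C Col-0 libraries had 766.8, 657.2, 687.7 and 709.5 CPM, against 1.67, 0.388, 0.675 and 0.427 CPM in normal light Col-0. Every UV-C library was above every normal light library. Its paralog WRKY18 rose by 4.18 ± 0.32 in Δlinda and by 4.52 ± 0.33 in Col-0, with 93.4 ± 14.5 and 88.0 ± 17.2 CPM after UV-C (SD, n = 4 each). The third of the trio, WRKY60, was not called, with log2 folds of 0.34 ± 0.29 in Δlinda and -0.08 ± 0.29 in Col-0.

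WRKY33 (AT2G38470), which controls camalexin synthesis and is a substrate of MPK3 and MPK6, had 947.4, 532.4, 700.9 and 757.5 CPM in UV-C Δlinda, against 16.4, 13.5, 13.3 and 36.6 CPM in normal light Δlinda. UV-C Col-0 libraries held 910.2, 762.4, 867.4 and 915.4 CPM, against 26.4, 12.03, 14.5 and 23.6 CPM in normal light Col-0. The groups did not overlap in either genotype, as for 30.4% of all genes above and 28.1% below in Δlinda and 33.1% above and 32.1% below in Col-0. The log2 folds were 5.19 ± 0.44 in Δlinda and 5.5 ± 0.45 in Col-0 (adjusted p = 1.34e-10 and 5.58e-11). The other group I risers were WRKY25, with 5.2 ± 0.24 and 4.53 ± 0.23, WRKY26, a relative of both, with 2.63 ± 0.30 and 2.96 ± 0.30, and WRKY19, with 0.64 ± 0.16 and 0.51 ± 0.15 in Δlinda and Col-0. WRKY4 rose in Δlinda by 0.30 ± 0.13 and was not called in Col-0.

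WRKY30 (AT5G24110), a stress-responsive group III member, had the largest fitted fold of the family in both genotypes. Its restored counts gave 224.7, 219.3, 266.2 and 267.8 CPM in UV-C Δlinda, against 0.152, 0.402, 0.199 and 0.113 CPM in normal light Δlinda. In UV-C Col-0 it had 220.2, 275.8, 305.0 and 289.1 CPM, against 0.463, 0.291, 0.253 and 0 CPM in normal light Col-0. The log2 folds were 10.08 ± 0.40 in Δlinda and 10.06 ± 0.39 in Col-0. This gene depends on where the missing decimal mark is placed. Read without use of the groups, its UV-C entries become 1000-fold smaller, and the folds become -3.56 in Δlinda and 0.02 in Col-0. With the unclear entry of normal light Δlinda replicate 4 read as a whole number, the fold in Δlinda was 6.18.

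WRKY75 (AT5G13080), known from phosphate starvation, senescence and defence, had 121.2, 96.0, 102.9 and 50.9 CPM in UV-C Δlinda, against 0, 0.402, 0.0993 and 0.402 CPM in normal light Δlinda. For UV-C Col-0 the levels were 95.2, 66.0, 81.2 and 84.4 CPM, against 0.185, 0, 0 and 0.171 CPM in normal light Col-0. UV-C libraries lay far above the controls, with log2 folds of 8.41 ± 0.38 and 9.69 ± 0.43 in Δlinda and Col-0. With the decimals placed without the groups, 8 WRKY75 entries were unclear and 0 were placed differently. WRKY51, one of the AAG pair and a part of jasmonate repression by salicylic acid, had 149.9, 149.4, 142.6 and 92.9 CPM in UV-C Δlinda, against 0.152, 0.0805, 0.199 and 0.241 CPM in normal light Δlinda, a log2 fold of 9.55 ± 0.37. Levels in UV-C Col-0 were 118.3, 99.2, 90.4 and 137.2 CPM, against 1.39, 0.388, 0.0843 and 0.598 CPM in normal light Col-0, a log2 fold of 7.5 ± 0.31. Its partner WRKY50 rose by 3.94 ± 0.22 in Δlinda and 3.83 ± 0.22 in Col-0.

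Group III members known from senescence and salicylic acid signalling also rose. WRKY46 had 200.2, 152, 205 and 175 CPM in UV-C Δlinda, against 4.25, 1.45, 2.68 and 2.97 CPM in normal light Δlinda. In UV-C Col-0 it had 163, 214, 174 and 233 CPM, against 3.34, 1.55, 1.26 and 3.16 CPM in normal light Col-0. No library of one group reached the other, and it rose by 6.07 ± 0.3 in Δlinda and 6.39 ± 0.3 in Col-0. WRKY53, a senescence regulator, had 176, 149, 158 and 112 CPM in UV-C Δlinda, against 2.21, 1.66, 2.08 and 6.23 CPM in normal light Δlinda. In UV-C Col-0 it had 161, 158, 147 and 164 CPM, against 1.95, 0.691, 1.15 and 1.16 CPM in normal light Col-0, where replicate 4 is an unclear entry. It rose by 5.54 ± 0.32 and 6.96 ± 0.35. All 30 entries of WRKY53 were given decimals. Without use of the groups all 30 were unclear and 3 were placed differently. WRKY70, which links salicylic acid and jasmonate signalling, and its close relative WRKY54 rose by 4.74 ± 0.38 and 3.49 ± 0.42 in Δlinda and by 2.78 ± 0.34 and 1.48 ± 0.38 in Col-0. For members at or near 0 in normal light, fitted folds depend on the prior count. WRKY62, a group III repressor of defence genes, was at least 19.9-fold higher in UV-C Δlinda than in normal light Δlinda, whose libraries were all at 0 (floor of 3 counts per library). In UV-C Col-0 its ratio to normal light Col-0, which held 1 count in all, was 234 (95% counting interval 41.5 to 9274). WRKY41 was at least 9.88-fold higher in UV-C Col-0, with 2.66 ± 0.92 CPM (SD, n = 4), than in normal light Col-0, all at 0. WRKY31 was at least 3.68-fold higher in UV-C Col-0 on the same ground, and WRKY55 had a ratio of 178 (49.0 to 1479). WRKY38 had a ratio of 254 in Δlinda (86.8 to 1237), and WRKY72 one of 11.2 in Col-0 (3.51 to 57.0). WRKY72 was also called in Δlinda, but its level there was under the floor of 3 counts per library. Intervals and floors cover counting error only.

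Further risers in both genotypes, in Δlinda and Col-0, were WRKY6 (4.13 and 5.02), WRKY15 (4.30 and 4.62), WRKY45 (5.16 and 5.75), WRKY48 (3.14 and 3.71), WRKY39 (2.27 and 2.36), WRKY11 (1.91 and 2.12) and WRKY17 (1.57 and 1.69). Smaller rises came from WRKY28 (1.47 and 2.47), WRKY22 (1.36 and 1.78), WRKY8 (1.46 and 1.05), WRKY21 (0.99 and 0.94), WRKY47 (0.96 and 1.07), WRKY23 (0.79 and 0.54) and WRKY16 (0.61 and 0.70), all as log2 folds. In Col-0 the call of WRKY8 was lost when any of 5 libraries was left out (adjusted p up to 0.148), and that of WRKY23 without UV-C replicate 3 (adjusted p = 0.0913). WRKY11 and WRKY17 are negative regulators of basal resistance, and WRKY6 acts in phosphate and senescence responses. The unclear entry of WRKY21 is UV-C Col-0 replicate 3. At its next most likely reading the fold of WRKY21 in Col-0 was 2.61, and the call in Δlinda was lost (0.99 ± 0.51, adjusted p = 0.0909). WRKY29, an activator in flagellin signalling that acts with WRKY22, was at -0.37 ± 0.22 and 0.13 ± 0.24 and was not called. Called up in Col-0 alone were WRKY14, WRKY36, WRKY43 and WRKY61, and in Δlinda alone WRKY4 and WRKY69. WRKY43 and WRKY61 had means of only 0.139 and 0.119 CPM in UV-C Col-0, and WRKY61 had counts in 1 UV-C Col-0 library of 4. The calls of WRKY4, WRKY43, WRKY61 and WRKY69 were each lost when any of several single libraries was left out.

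WRKY3 (AT2G03340), which acts in resistance to necrotrophic fungi, was the most abundant member to fall. It had 17.1, 13.8, 16.4 and 20.3 CPM in UV-C Δlinda, against 57.6, 60.0, 53.8 and 58.8 CPM in normal light Δlinda. It had 17.4, 18.7, 14.3 and 18.6 CPM in UV-C Col-0, against 57.6, 60.9, 63.2 and 64.2 CPM in normal light Col-0. The ranges did not meet, and the log2 fold was -1.76 ± 0.12 in Δlinda and -1.83 ± 0.12 in Col-0 (adjusted p = 4.44e-14 and 1.81e-14). WRKY44, the trichome and seed coat regulator TTG2, fell by 0.77 ± 0.23 on the log2 scale in Δlinda and by 0.57 ± 0.24 in Col-0. The Col-0 call was lost when any of 5 libraries was left out, with adjusted p of 0.0637 to 0.135. It was also lost with DESeq2 (adjusted p = 0.06), RLE size factors (0.0575), library totals (0.117), no filter on low counts (0.0563) and the groups of the comparison alone (0.0782). WRKY12, a regulator of secondary wall formation, fell in Col-0 by 1.9 ± 0.46 and was not called in Δlinda. Called lower in Δlinda alone were WRKY20 (-0.41), WRKY13 (-1.38), WRKY35 (-1.73) and WRKY49 (-4.90), the last with 0.021 CPM in UV-C Δlinda and 0.908 CPM in normal light Δlinda. Of these, WRKY20 kept its call under every alternative tried. WRKY13 lost it when any of 3 libraries was left out (adjusted p up to 0.0795), WRKY35 when any of 4 was (up to 0.261) and WRKY49 when any of 7 was (up to 0.0928). WRKY35 and WRKY49 also lost it without TMM scaling, without the filter on low counts and with a replicate block (adjusted p of 0.0543 to 0.0795). Not called in either genotype were WRKY1, WRKY2, WRKY7, WRKY9, WRKY27, WRKY29, WRKY32, WRKY42, WRKY57, WRKY60 and WRKY65, which makes 11 members.

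**Figure D2:**
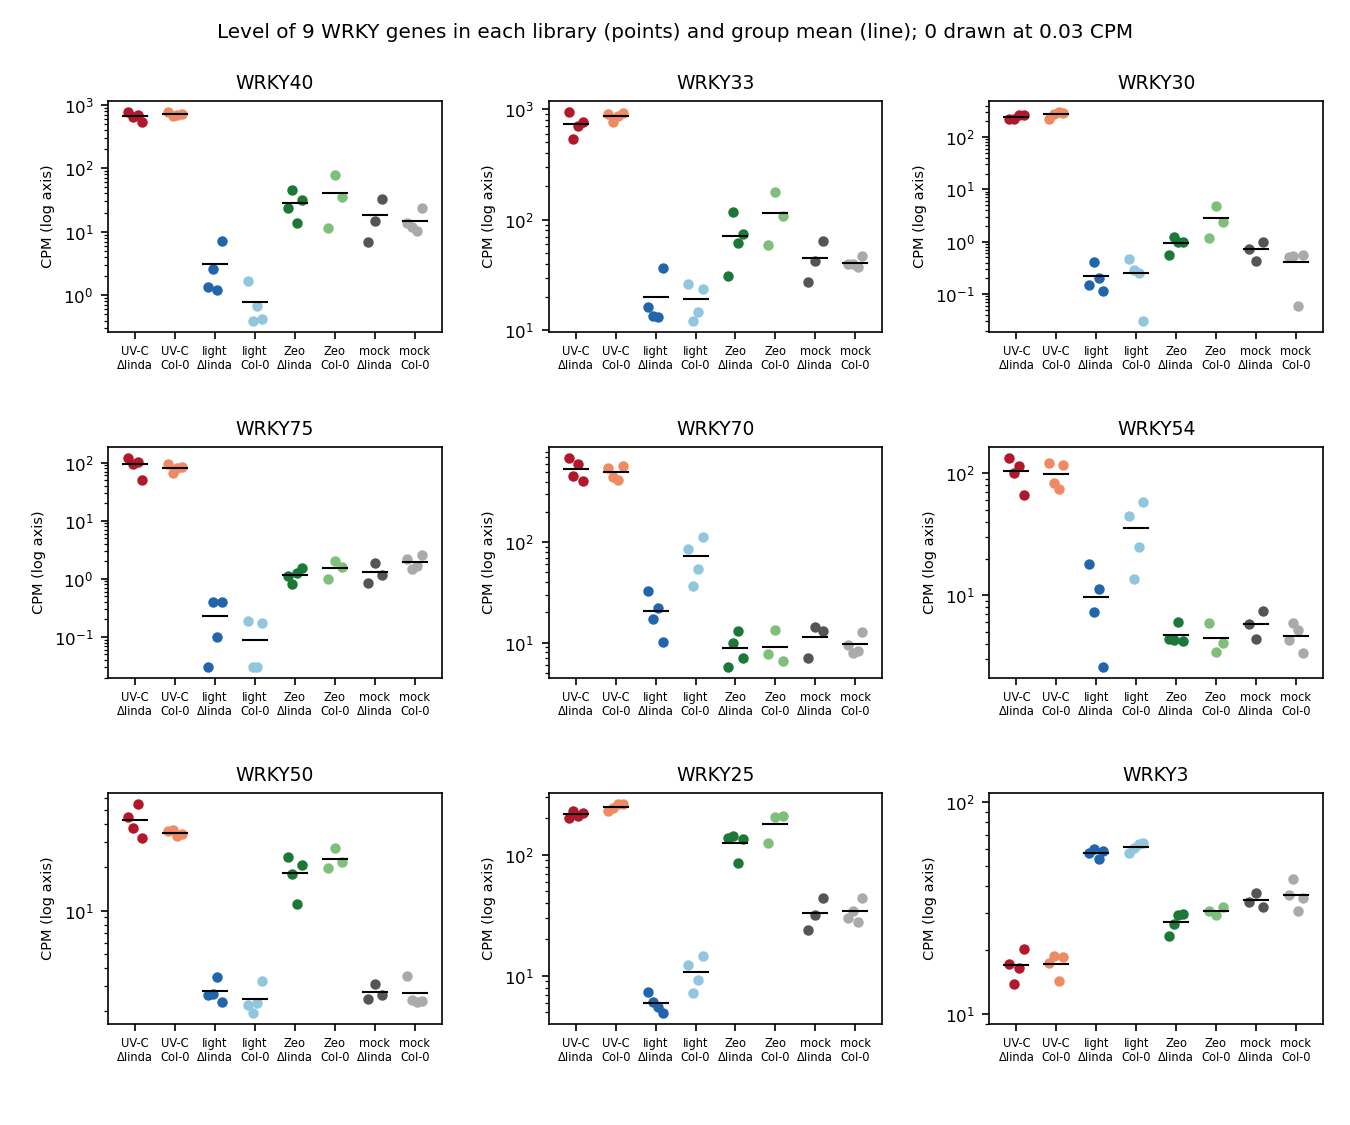
Level (CPM, log axis) of 9 WRKY members in each library (points) and group mean (lines) over the 8 groups on the horizontal axis, with 0 drawn at 0.03 CPM. WRKY40, WRKY33, WRKY30 and WRKY75 stand highest in the UV-C groups, WRKY50 and WRKY25 are also raised by Zeocin, and WRKY3 is lowest after UV-C.

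Members with W-boxes in the 300-base window were also compared by their UV-C response in Col-0. The 36 members with none held 20 that rose and 2 that fell, with a median log2 fold of 0.94. The 11 with 1 copy held 9 that rose and 1 that fell, with a median of 2.96. The 12 with 2 or more held 9 that rose and 0 that fell, with a median of 5.06. WRKY40, WRKY51 and WRKY46 had large rises and neither TTGACC nor TTGACT in the window, though each window holds the shorter core TTGAC on one strand. These are descriptions of the members, with no test and no like split of all genes beside them. Of all genes, whatever their windows hold, 35.0% were called up and 33.7% down in Col-0.

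Per kilobase of transcript, WRKY40 led both UV-C groups, with 500 CPM per kb in Δlinda and 532 in Col-0. In Col-0 it was followed by WRKY33 (426), WRKY70 (339), WRKY15 (254) and WRKY30 (211), in CPM per kb. In normal light the order was different: WRKY3 led Δlinda with 26.1 CPM per kb and WRKY70 led Col-0 with 49.4 CPM per kb. In mock libraries WRKY15 led, with 28.5 CPM per kb in Δlinda and 31.4 in Col-0. WRKY25 led the Zeocin groups, with 70.4 CPM per kb in Δlinda and 102 in Col-0.

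Zeocin raised few members. In Δlinda 6 rose and in Col-0 12, of 58 tested, and 0 fell in either by edgeR. Of the members 10.3% and 20.7% were called up, beside 2.43% of all genes in Δlinda and 4.14% in Col-0 (2.9% and 5.45% either way, with 0.469% and 1.31% down). At an unadjusted p under 0.05 in either direction the counts were 15 and 22 members, beside 12% and 16.1% of all genes. DESeq2 called 7 and 14 members, and 3.79% and 6.55% of all genes. Its Δlinda calls include WRKY22 as lower (log2 fold -1.29 ± 0.40, adjusted p = 0.035). WRKY22 was also called lower by edgeR without mock Δlinda replicate 2 (-1.60 ± 0.42, adjusted p = 0.0365) or Zeocin Δlinda replicate 4 (-1.58 ± 0.43, 0.0458). The median member had a log2 fold of 0.04 in Δlinda and 0.12 in Col-0. Called in both genotypes were 5 members, WRKY23, WRKY25, WRKY44, WRKY48 and WRKY50. WRKY60 was called in Δlinda alone, and WRKY6, WRKY26, WRKY30, WRKY33, WRKY41, WRKY46 and WRKY53 in Col-0 alone. The Col-0 count rests on single libraries: without mock replicate 1 or without Zeocin replicate 2 it was 7, and without Zeocin replicate 1 it was 15. WRKY18 and WRKY40 were not called in Col-0 with all libraries. Without Zeocin Col-0 replicate 1 both were, with log2 folds of 1.2 ± 0.3 and 1.92 ± 0.5 (edgeR, adjusted p = 0.0123 and 0.0193). DESeq2 called WRKY18 with all libraries (0.95 ± 0.29, adjusted p = 0.0248). Summed root markers were lower after Zeocin, though in Col-0 the mean of MYB36 was higher (5.49 CPM, against 4.79 CPM in mock). The 7 root markers summed to 68.0 to 88.7 CPM in Zeocin Δlinda, against 93.3 to 109.0 CPM in mock Δlinda. In Col-0 they summed to 76.2 to 86.1 CPM after Zeocin, against 86.5 to 105.7 CPM in mock, with none at 0. The 3 vascular markers summed to 142.1 to 166.6 CPM in Zeocin Δlinda, against 126.3 to 136.7 CPM in mock Δlinda. They overlapped in Col-0, with 162.4 to 212.1 CPM after Zeocin and 135.3 to 171.1 CPM in mock. Among them SEOR1 had means of 46.48 and 59.25 CPM in Zeocin Δlinda and Col-0, against 33.45 and 32.13 CPM in mock. SUC2 and APL rose less. Summed leaf markers and summed stomatal lineage markers overlapped between Zeocin and mock in both genotypes. Their part in the WRKY calls was not tested.

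WRKY50 (AT5G26170) was the strongest of those called in both genotypes. Its level was 23.7, 17.9, 11.2 and 20.7 CPM in Zeocin Δlinda, against 2.44, 3.12 and 2.59 CPM in mock Δlinda. It was 19.6, 27.2 and 21.7 CPM in Zeocin Col-0, against 3.53, 2.42, 2.34 and 2.37 CPM in mock Col-0. No Zeocin library overlapped the mock range, which held for 7.24% of all genes above and 5.28% below in Δlinda and for 7.91% and 5.95% in Col-0. The log2 folds were 2.75 ± 0.23 in Δlinda and 3.10 ± 0.21 in Col-0 (adjusted p = 2.40e-10 and 2.31e-12).

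WRKY25 (AT2G30250), a heat and osmotic stress regulator, had 136.9, 142.7, 85.2 and 135.1 CPM in Zeocin Δlinda, against 23.8, 31.9 and 43.98 CPM in mock Δlinda. It had 126.3, 206.8 and 209.7 CPM in Zeocin Col-0, against 30.2, 34.3, 28.0 and 44.1 CPM in mock Col-0. All Zeocin libraries lay above the mock ones, with log2 folds of 1.91 ± 0.22 in Δlinda and 2.41 ± 0.21 in Col-0. WRKY48, a stress-induced activator that lowers basal resistance, rose by 1.45 ± 0.26 and 2.20 ± 0.25, to 27.9 ± 7.29 CPM in Zeocin Δlinda (SD, n = 4) and 43.7 ± 12.5 CPM in Zeocin Col-0 (SD, n = 3). WRKY44 rose by 0.98 ± 0.22 and 1.06 ± 0.22, and WRKY23, which acts in root auxin responses, by 0.90 ± 0.20 and 0.75 ± 0.19, in Δlinda and Col-0. WRKY23 lost its call without mock Δlinda replicate 2 (adjusted p = 0.0539), and in Col-0 without mock replicate 1 (0.0679), without Zeocin replicate 2 (0.152) and with a replicate block (0.0597). WRKY44 lost it in Δlinda without mock replicate 1 (adjusted p = 0.0823) and in Col-0 with the groups of the comparison alone (0.0633). WRKY60 rose by 1.09 ± 0.29 in Δlinda (adjusted p = 0.0271) and was at 0.78 ± 0.28 in Col-0 (adjusted p = 0.111). The Δlinda call was lost without mock replicate 2 (adjusted p = 0.163), mock replicate 3 (0.134) or Zeocin replicate 1 (0.0834), and with a replicate block (0.0507).

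Some members called in Col-0 alone spread widely between libraries. WRKY33 had 58.7, 178.9 and 108.9 CPM in Zeocin Col-0, against 39.8, 39.6, 37.7 and 46.5 CPM in mock Col-0, a log2 fold of 1.5 ± 0.40 (adjusted p = 0.0229). The call was lost when any of 5 of the 7 libraries was left out, with adjusted p of 0.0575 to 0.247, and without Zeocin replicate 2 the fold was 1.03. In Zeocin Δlinda it had 31.0, 118.5, 62.0 and 74.98 CPM, against 27.6, 41.9 and 64.5 CPM in mock Δlinda, and the fold of 0.68 ± 0.40 was not called. WRKY30 had 1.19, 4.84 and 2.40 CPM in Zeocin Col-0 and 0.505, 0.543, 0.0600 and 0.546 CPM in mock Col-0, a log2 fold of 2.74 ± 0.43 that lost its call under 2 other readings of the decimals (adjusted p = 0.0713 and 0.0953). WRKY46 (1.60 ± 0.28), WRKY26 (1.32 ± 0.28), WRKY53 (1.06 ± 0.30) and WRKY6 (0.93 ± 0.26) were the other risers in Col-0. The call of WRKY53 was lost when any of 5 libraries was left out (adjusted p of 0.0662 to 0.141), with its unclear entries, which lie in normal light Col-0 and mock Δlinda and so outside the groups compared, at their next most likely reading (0.269) and with the decimals placed without the groups (0.526). WRKY6 lost its call when any of 5 libraries was left out (adjusted p of 0.0551 to 0.322, with a fold of 0.61 without Zeocin replicate 2), and WRKY26 without Zeocin replicate 3 (0.0517). With the groups of the comparison alone WRKY6 (0.135) and WRKY26 (0.136) lost their calls too. Without the filter on low counts WRKY6 (0.0656) and WRKY53 (0.0751) lost theirs. WRKY41 was at least 1.71-fold higher in Zeocin Col-0 than in mock Col-0, all at 0, with at most 0.416 CPM in any Zeocin library, and its call was lost when any of 5 libraries was left out.

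Comparing the responses as signed log2 folds, UV-C gave the higher one for most members. In Δlinda the UV-C response exceeded the Zeocin response for 33 members and was below it for 3, and in Col-0 for 34 and 3 (edgeR, adjusted p under 0.05). Among all genes the difference was called up for 27.6% and 27.9% and down for 26.9% and 27.8%, or 54.5% and 55.8% either way. The median member difference was 1.22 on the log2 scale in Δlinda and 1.52 in Col-0. The 3 members below were the same in both genotypes: WRKY44, WRKY3 and WRKY20. In Col-0 the call of WRKY20 was lost with library totals in place of TMM (-0.37, adjusted p = 0.102) and without Zeocin replicate 2 (adjusted p = 0.0589). WRKY44 is the one member called in opposite directions by edgeR, lower after UV-C and higher after Zeocin. Its Col-0 call after UV-C, and its Zeocin calls in both genotypes, were not kept under all alternatives. The difference was -1.75 in Δlinda and -1.63 in Col-0 (adjusted p = 3.67e-05 and 1.12e-04). In Col-0, 11 members rose after both treatments and 27 after UV-C alone. In Δlinda 4 rose after both and 32 after UV-C alone. Shares of all genes are given above for each treatment singly and not for both together. WRKY75 differed by 8.59 on the log2 scale in Δlinda and by 10.05 in Col-0, and WRKY51 by 9.72 and 6.95. The doses of the treatments are not on one scale, and the controls differ in medium.

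**Figure D3:**
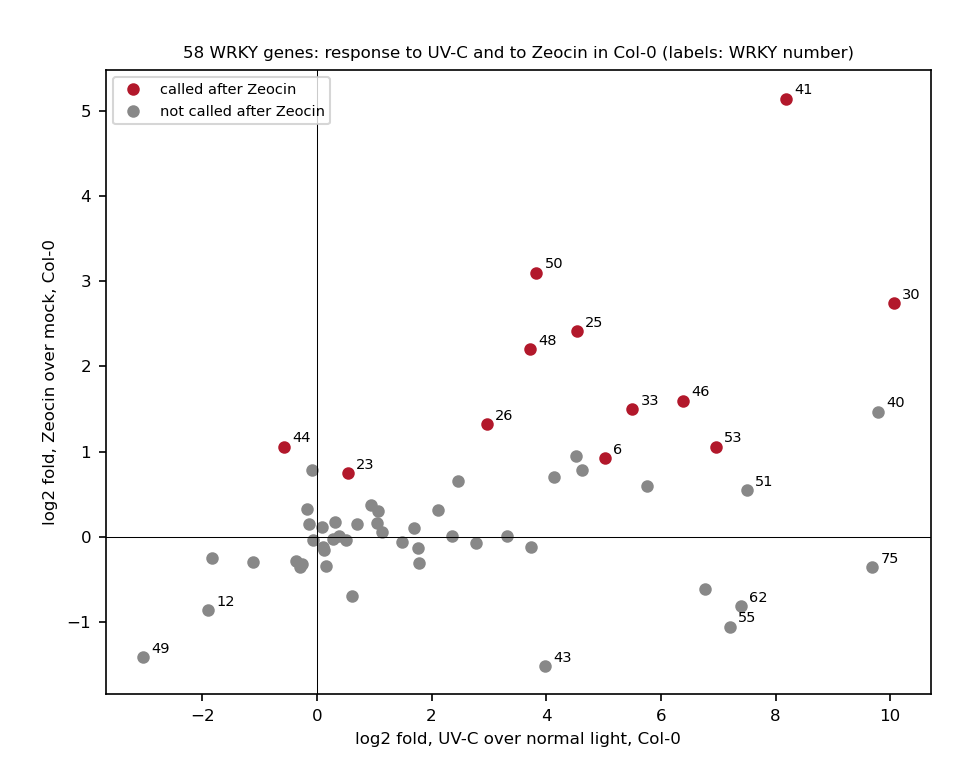
Log2 fold of 58 WRKY members after UV-C (horizontal axis) and after Zeocin (vertical axis) in Col-0; red points were called after Zeocin and numbers name the WRKY gene. WRKY50, WRKY25 and WRKY48 stand high on both axes, WRKY75 and WRKY40 are far right without a call after Zeocin, and WRKY44 lies left of 0 on the horizontal axis.

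Between genotypes, few differences passed the test. After UV-C, after Zeocin and in mock libraries 0 of 58 members were called, against 0.0191% (0.0144% up, 0.00479% down), 0.196% (0.0287% up, 0.168% down) and 0.0144% (all down) of all genes by edgeR. At an unadjusted p under 0.05 the counts were 4 members after UV-C, 20 after Zeocin and 1 in mock, beside 6.81%, 13% and 3.64% of all genes. DESeq2 called 0, 4 and 0 members in the same comparisons, and 0.0431%, 1.12% and 0.0383% of all genes; the 4 after Zeocin were WRKY7, WRKY26, WRKY30 and WRKY47, all lower in Δlinda. Without Zeocin Col-0 replicate 1 edgeR called 9 members lower in Zeocin Δlinda, and 1.99% of all genes. In normal light 1 of 58 members was called, WRKY70, which was lower in Δlinda, against 0.163% of all genes (0.0574% up, 0.105% down). A further 11 members had an unadjusted p under 0.05, which 8.94% of all genes had. DESeq2 called 7 members there and 0.737% of all genes.

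WRKY70 (AT3G56400) had 32.3, 17.3, 22.2 and 10.2 CPM in normal light Δlinda, against 85.8, 36.9, 54.6 and 113.0 CPM in normal light Col-0. The highest Δlinda library was below the lowest Col-0 library, as for 3.62% of all genes, and the log2 fold was -1.85 ± 0.35 (adjusted p = 0.0202). The call was lost when normal light Col-0 replicate 1 or 4, or normal light Δlinda replicate 2 or 4, was left out, with adjusted p of 0.0756 to 0.151. WRKY54, its relative, had 17.9, 7.24, 11.2 and 2.57 CPM in normal light Δlinda, against 44.8, 13.7, 24.7 and 58.4 CPM in normal light Col-0. These ranges overlap and the log2 fold was -1.93 ± 0.41 (adjusted p = 0.0528). After UV-C no difference was called. WRKY70 stood at 540 ± 134 CPM in UV-C Δlinda and 498 ± 78.5 CPM in UV-C Col-0 (SD, n = 4 each), with a log2 fold of 0.12 ± 0.32.

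The interaction asks whether Δlinda and Col-0 responded differently. It called 0 of 58 members for UV-C (0.0144% of all genes, 0.00479% up and 0.00957% down) and 0 for Zeocin (0.0335% of all genes) in edgeR. At an unadjusted p under 0.05 it held 12 members for UV-C and 8 for Zeocin, beside 7.4% and 3.66% of all genes. WRKY70 had the smallest p for UV-C, with an interaction of 1.96 ± 0.47 on the log2 scale (adjusted p = 0.302). WRKY30 had the smallest for Zeocin, with -2.33 ± 0.68 (adjusted p = 0.899). DESeq2 called 1 member for UV-C, WRKY14, and 0 for Zeocin, and 0.11% and 0.0383% of all genes.

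The controls of the 2 experiments differed in many members too. Against normal light, mock libraries had 34 members higher and 4 lower in Δlinda, and 35 higher and 5 lower in Col-0. All genes were called up in 25.9% and 29.8%, and down in 21.4% and 25.4%, or 47.2% and 55.3% either way. The median member was at 1.22 and 1.48 on the log2 scale. Medium, harvest time and experiment cannot be told apart here, and scaling matters. With library totals in place of TMM the median gene moved to 0.51 in Δlinda and 0.58 in Col-0, from 0.05 in both. The members' split became 43 to 0 and 46 to 3. Of all genes, 54% and 59.8% were then called up and 10% and 10.9% down.

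Members near 0 in normal light and present in liquid medium gave large changes here. WRKY72 had 17.9, 13.8 and 19.3 CPM in mock Δlinda, against 0 in all 4 normal light Δlinda libraries, so it was at least 55.1-fold higher. In mock Col-0 it had 14.4, 13.5, 14.4 and 14.6 CPM, against 0.0927, 0.0970, 0 and 0.0854 CPM in normal light Col-0, a ratio of 212 (95% counting interval 72.3 to 1029). WRKY61 was at least 18.9-fold and WRKY31 at least 15.2-fold higher in mock Col-0 than in normal light Col-0. WRKY36 averaged 16.8 ± 2.03 CPM in mock Δlinda (SD, n = 3), against 0.750 ± 0.227 CPM in normal light Δlinda (SD, n = 4). WRKY65 had log2 folds of 4.98 ± 0.29 in Δlinda and 4.81 ± 0.27 in Col-0, WRKY9 of 5.0 ± 0.41 and 6.32 ± 0.45, WRKY14 of 3.36 ± 0.33 and 5.26 ± 0.38, and WRKY35 of 3.59 ± 0.48 and 4.43 ± 0.49.

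Defining root markers were also higher in mock, although every library is labelled whole seedling. CASP1, which builds the Casparian strip, had 15.5 to 25.6 CPM in mock Δlinda and 13.8 to 22.5 CPM in mock Col-0. It had 0 to 0.322 CPM in normal light Δlinda and 0.0843 to 0.256 CPM in normal light Col-0, and 0 in all UV-C libraries. PLT1, a root stem cell regulator, was at 0 in all normal light libraries and at 3.66 to 5.92 CPM in mock. The 7 root markers summed to 93.3 to 109.0 CPM in mock Δlinda and 86.5 to 105.7 CPM in mock Col-0, against 41.7 to 50.5 CPM in normal light Δlinda and 39.6 to 50.1 CPM in normal light Col-0. SCR, SHR and WOX5 were detected in every group. The 3 leaf markers summed to 10800 to 13670 CPM in mock and to 23550 to 32720 CPM in normal light. The 3 vascular markers summed to 126.3 to 171.1 CPM in mock and to 197.1 to 274.8 CPM in normal light, and the 4 stomatal lineage markers to 33.6 to 39.6 CPM and 44.3 to 56.3 CPM, with none at 0. Their part in the WRKY differences was not tested.

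WRKY70 and WRKY54 went the other way in Col-0. WRKY70 was lower in mock Col-0, at 9.58 ± 2.28 CPM, than in normal light Col-0, at 72.5 ± 33.7 CPM (SD, n = 4 each), a log2 fold of -2.92 ± 0.36. In Δlinda the fold of -0.81 ± 0.39 was not called, beside the lower level of this gene in normal light Δlinda. WRKY12 (-1.37 and -1.76), WRKY3 (-0.74 and -0.75) and WRKY2 (-0.72 and -0.68) were lower in both Δlinda and Col-0, as log2 folds, though without TMM scaling the folds of WRKY2 and WRKY3, and of WRKY12 in Δlinda (-0.91, adjusted p = 0.0941), were no longer called. The Δlinda call of WRKY12 was also lost when any of 3 libraries was left out. A replicate block cannot check these differences, since no block spans both experiments.

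**Figure D4:**
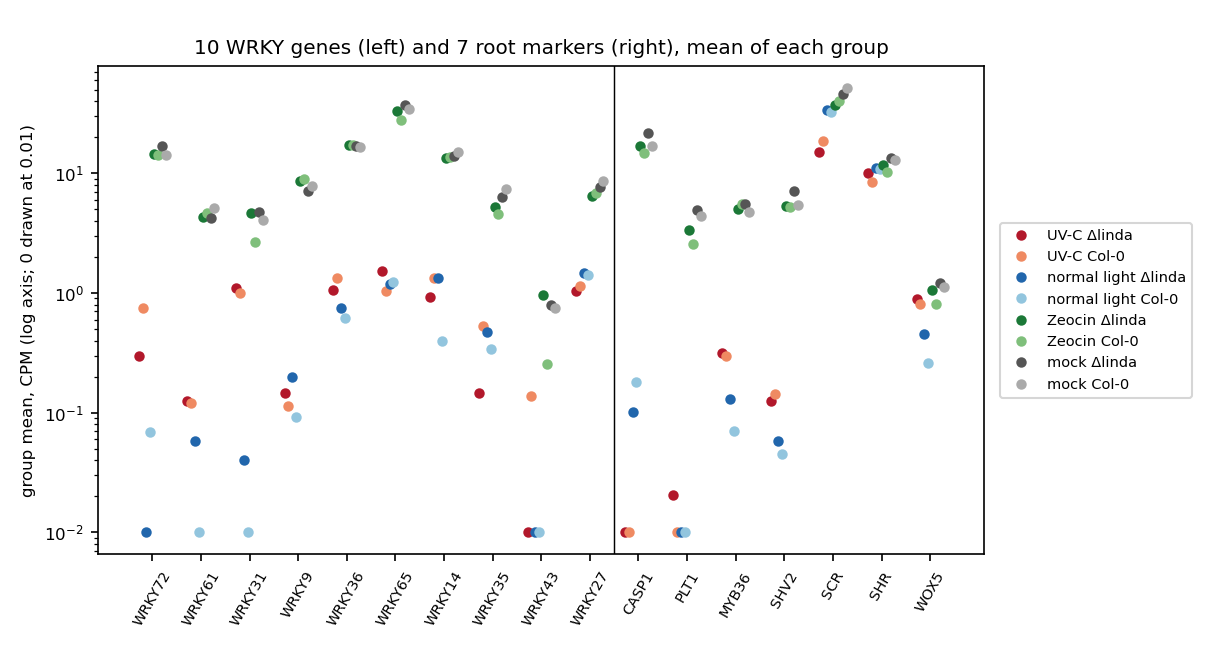
Group means (CPM, log axis, 0 drawn at 0.01) of 10 WRKY members, chosen after their values were seen, and of 7 root markers, with 1 colour per group. In the 4 UV-C and normal light groups the WRKY members and CASP1, PLT1, MYB36 and SHV2 sit well below the 4 Zeocin and mock groups, while SCR, SHR and WOX5 are seen in all 8 groups.

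Partners and targets were counted from lists made with earlier results of these data known. Of 12 kinases known to act with WRKY factors, 12 rose after UV-C in both genotypes, where 35.3% and 35.0% of all genes were called up in Δlinda and Col-0, with median log2 folds of 2.26 in Δlinda and 1.85 in Col-0. Examples are MPK3, with 2.38 ± 0.18 and 2.33 ± 0.18, and MKK4, which acts upstream of it, with 3.95 ± 0.18 and 3.93 ± 0.18. After Zeocin, with 2.43% and 4.14% of all genes called up, 0 of 12 rose in Δlinda and 2 in Col-0, CPK4 by 0.87 ± 0.12 and MPK3 by 0.63 ± 0.18. MEK1, also known as MKK1, was lower in normal light Δlinda than in normal light Col-0, by 1.0 ± 0.18 on the log2 scale (adjusted p = 0.0102). CPK4 was lower in Zeocin Δlinda than in Zeocin Col-0, by 0.54 ± 0.12 (adjusted p = 0.0487).

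VQ-motif proteins bind WRKY factors and modify their activity. Of 6 tested, 6 rose after UV-C in both genotypes, beside the same 35.3% and 35.0% of all genes, with medians of 4.29 in Δlinda and 3.63 in Col-0. MKS1, which links MPK4 to WRKY33, rose by 3.68 ± 0.22 and 3.51 ± 0.21. After Zeocin, with 2.43% and 4.14% of all genes called up, 0 of 6 rose in Δlinda and 1 in Col-0, MKS1 by 0.74 ± 0.22. Of 14 known WRKY targets 11 could be tested, and 10 of them rose after UV-C in both genotypes, again beside 35.3% and 35.0% of all genes. PAD3, the last step of camalexin synthesis, had log2 folds of 10.38 ± 0.50 in Δlinda and 12.97 ± 0.58 in Col-0. PHO1, a phosphate exporter that WRKY6 represses, was at -0.12 ± 0.26 in both and was not called. After Zeocin 1 of the 11 targets rose and 1 fell in each genotype. Of all genes 2.43% and 4.14% were called up and 0.469% and 1.31% down, in Δlinda and Col-0. PHO1 fell by 1.11 ± 0.24 in Δlinda and by 0.90 ± 0.25 in Col-0. PAD3 rose by 1.81 ± 0.43 in Δlinda, and EDS1, a defence lipase-like protein, by 0.85 ± 0.13 in Col-0.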

How the data were processed

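RNA was sequenced from 30 libraries in 8 groups, with 3 or 4 libraries each. The deposited table holds Salmon estimated counts per gene, per the submitters' processing notes (Trimmomatic 0.38.0, FastQC 0.72, Salmon 0.14.1.2). The transcript set and build are not given in the sources used here. Entries with decimals had lost their decimal mark. Marks were placed per gene by likelihood over the groups: 107113 of 723692 entries above 0 (14.801%) received decimals, and 2511 genes were left out as unclear.

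Whole-number counts went into edgeR 4.0.16 (R 4.3.3; robust quasi-likelihood test, TMM, 1 coefficient per group, all libraries in 1 fit, filterByExpr with minimum count 10 and minimum total 15). Adjusted p is Benjamini-Hochberg over 20893 genes, called under 0.05; errors of folds are SE. The steps were tested on simulated data. DESeq2 1.42.0, other scaling, no filter, a replicate block, own groups alone, other decimal readings and leaving out each library were alternatives. The readings of unclear entries at their next placement and as whole numbers were added after the data were seen.

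All 59 members could be named. The largest changes and a list of well-known members were given in more detail. Members, pathway lists and markers were chosen with earlier results of these data known. W-boxes and codons came from RefSeq TAIR10.1. Intervals are exact at 95% and floors are 3 counts per library.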

Additional observations from a re-analysis of the deposited data

Results flagged for a closer look

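In 23 of 301 groups of 4 libraries tested, 1 library's level of a WRKY member stood apart from the other libraries of its group. Chance flags about 1 in 20 groups. All values are in CPM, with the nearest other library of the same group second.

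After UV-C, Δlinda replicate 4 was low for WRKY51 (92.93, nearest 142.6). In UV-C Col-0, WRKY38 was high in replicate 1 (23.89, nearest 12.27), WRKY41 was high in replicate 3 (4.028, nearest 2.294), WRKY36 was low in replicate 3 (0.9865, nearest 1.433) and WRKY17 was high in replicate 4 (29.76, nearest 25.03).

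In normal light Δlinda, replicate 4 was high for WRKY33 (36.63, nearest 16.38), WRKY53 (6.231, nearest 2.209) and WRKY29 (6.507, nearest 4.669). WRKY4 was high in replicate 3 (18.38, nearest 14.71) and WRKY11 low in replicate 2 (29.54, nearest 40.24). In normal light Col-0, replicate 2 was low for WRKY19 (24.35, nearest 29.75) and WRKY21 (14.55, nearest 17.52).

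In Zeocin Δlinda, replicate 3 was low for WRKY25 (85.21, nearest 135.1) and high for WRKY12 (1.583, nearest 0.7426) and WRKY54 (6.001, nearest 4.374). WRKY72 was low in replicate 2 (11.08, nearest 15.1) and WRKY51 low in replicate 4 (2.304, nearest 2.902).

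In mock Col-0, replicate 4 was high for WRKY42 (2.064, nearest 0.9663) and WRKY39 (47.53, nearest 39.95). Replicate 2 was high for WRKY43 (1.329, nearest 0.5996) and low for WRKY17 (18.18, nearest 24.68). WRKY50 was high in replicate 1 (3.534, nearest 2.416), the library whose genotype tag names the mutant, and WRKY38 was high in replicate 3 (2.159, nearest 0.4856).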

How the results depend on the processing

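For single members, 270 results were recomputed under alternatives, giving 5014 values. Direction and side of the threshold held for 4764 values, 235 lost the call, 9 gained one and 6 turned round, and 212 results never changed. With the decimals placed without the groups, the log2 fold of WRKY30 after UV-C in Δlinda became -3.56, its UV-C minus Zeocin difference became -3.97 in Δlinda and -2.72 in Col-0, and WRKY53 after Zeocin in Δlinda became -0.98. That fit differs from the main one in how the decimals were placed, and which reading is right is not settled here. Without TMM, WRKY20 in mock against normal light Δlinda became 0.11. Without UV-C Col-0 replicate 1, the only UV-C Col-0 library with counts, WRKY61 became 0.00; its values without 1 library reached up to 4.15.

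DESeq2 called 7 members for Δlinda against Col-0 in normal light, where edgeR called 1. WRKY14, WRKY29 and WRKY53 were higher and WRKY25, WRKY38, WRKY54 and WRKY70 lower in Δlinda. It called 4 after Zeocin and 1 for the UV-C interaction, where edgeR called 0; the cause was not tested. With the groups of the comparison alone, 0 were called in normal light, a fit with fewer samples. Leaving out 1 library, members called ranged from 38 to 42 (Δlinda) and 37 to 41 (Col-0) after UV-C, and from 5 to 7 and 7 to 15 after Zeocin. Between genotypes they ranged from 0 to 3 in normal light and 0 to 9 after Zeocin, and stayed 0 after UV-C, in mock and in both interactions. They ranged from 35 to 37 and 31 to 38 for UV-C minus Zeocin, and from 34 to 41 and 39 to 42 for mock against normal light. The share of all genes called can move with the library left out as well. Without Zeocin Col-0 replicate 1, 1.99% of all genes were called lower in Zeocin Δlinda, against 0.168% with all libraries.

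Same-numbered replicates are not shown to be paired, since not every correlation was over 0.1 (from -0.388 to 0.184). With a replicate block, 2 members were called between genotypes after Zeocin, against 0 without it, and 1 in normal light. The share of all genes called with a block is not given here. The block gave 40 and 40 members after UV-C, and 5 and 12 after Zeocin, in Δlinda and Col-0. For mock against normal light the block cannot be read, since no block spans both experiments. The counts of changed values above include those fits. Low counts limit members such as WRKY43, WRKY49 and WRKY61, and 1 library of normal light Δlinda held 7897847 counts.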
